A study of Mus musculus with 27 samples.

Results

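The direct conversion of fibroblasts examined here was driven by 5 cardiac transcription factors delivered together by lentivirus, Hand2, Nkx2-5, Gata4, Mef2c and Tbx5 (HNGMT), and the RNA read at these 5 genes was followed in every culture of the series. The 5 genes were taken by symbol, and each was represented by exactly 1 probe set, so that 5 probe sets of the 21789 with a single gene symbol (5 of 19938 genes) were described. No probe set that lists several genes carried any of the 5. RNA was collected at Day 3 from 27 mouse cultures, 3 in each of 9 groups, and each was read on its own Affymetrix Mouse Gene ST array. The values are log2 expression values as deposited, so a difference of 1 is a doubling.

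Mouse embryonic fibroblasts (MEFs), prepared from embryos after removal of the heart, formed 6 groups. Of these, 3 received HNGMT together with 0.5 µM SB431542 (SB, an inhibitor of the type I TGFβ receptor kinases), 2 ng/mL TGFβ1 (TGFb1) or the DMSO vehicle, and 3 were kept without the factors (0TF) with the same additions. Cardiac fibroblasts (CFs) from adult mice formed the other 3 groups, all with HNGMT, with 5 µM SB, 2 ng/mL TGFb1 or DMSO. No CF culture without factors is among the labelled samples, so the factors themselves could be tested only in MEFs. The factors were carried on tetO vectors, which transcribe their insert when the transactivator rtTA and doxycycline are present, and the protocol adds rtTA and a Troponin T-GCaMP reporter virus before the factors. The labels describe 0TF cultures as given empty vector in one field and as given no factor in another, and the extraction text speaks of non-transduced MEFs, so whether 0TF cultures carried these viruses is not settled by the labels. The protocol text attached to the CF samples describes MEFs. Cultures of a group were independent biological replicates according to the labels.

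In the embryo these 5 proteins act together in the cardiac regulatory network. Hand2 is a basic helix-loop-helix factor of the right ventricle and of the heart's connective tissue, Nkx2-5 is the NK2 homeodomain factor that marks cardiac progenitors, Gata4 is a zinc finger factor that binds GATA sites, Mef2c is a MADS box factor that works with muscle cofactors, and Tbx5 is the T-box factor of the atria, left ventricle and forelimb. Gata4, Mef2c and Tbx5 bind one another and share many target enhancers, and fibroblasts of several organs express some of the 5 genes without becoming muscle. A probe set of this array pools short probes spread along the mouse transcript, so it can read the endogenous transcript, the delivered coding sequence or both. The methods name human assays for the delivered NKX2.5, GATA4, MEF2C and TBX5 and a mouse assay for the delivered Hand2. How many probes of each set match a delivered coding sequence was not tested, since no probe sequences were used here.

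The transcripts behind the 5 probe sets lie on 5 different chromosomes (8 for Hand2, 17 for Nkx2-5, 14 for Gata4, 13 for Mef2c and 5 for Tbx5). The tetO vectors drive their inserts from their own promoter, so the stretches from 250 bases before to 50 bases after the endogenous starts surround starts that the vectors do not use. RefSeq windows of build GRCm38.p6 matched 3 of the 5 genes, with 1 window for Hand2, 1 for Nkx2-5 and 3 for Mef2c. The Hand2 window (chr8:57320733-57321032, plus strand) and the most upstream Mef2c window (chr13:83503784-83504083, plus strand) are shown, because Hand2 had the largest factor response of the 5 and Mef2c the largest TGFb1 response of the 5 in 0TF MEFs.
Hand2: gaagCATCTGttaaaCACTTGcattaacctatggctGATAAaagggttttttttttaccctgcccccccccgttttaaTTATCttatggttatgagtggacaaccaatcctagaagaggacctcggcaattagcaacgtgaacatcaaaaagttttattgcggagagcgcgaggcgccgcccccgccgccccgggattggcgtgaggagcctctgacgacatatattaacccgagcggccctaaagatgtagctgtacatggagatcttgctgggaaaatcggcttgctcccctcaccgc
Mef2c: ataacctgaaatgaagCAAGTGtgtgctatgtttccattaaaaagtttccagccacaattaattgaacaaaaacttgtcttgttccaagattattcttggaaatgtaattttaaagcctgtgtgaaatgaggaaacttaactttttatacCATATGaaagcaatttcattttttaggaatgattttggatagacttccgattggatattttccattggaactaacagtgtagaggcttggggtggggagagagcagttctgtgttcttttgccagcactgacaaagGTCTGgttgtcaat
Capitals mark matches on either strand to 6 motifs. The E-box, bound by helix-loop-helix factors such as Hand2, was searched as CANNTG. The motif of zinc finger factors such as Gata4 was searched as GATAA, and that of the NK2 homeodomain as AAGTG. The T-box motif bound by Tbx5 and its relatives was searched as AGGTGT, the box bound by SMAD proteins, which carry the TGFβ signal, as CAGAC, and the MEF2 consensus by its known degenerate form. In both windows the 1 NK2 match overlapped an E-box. The Hand2 window held 2 E-box, 2 GATA and 1 NK2 matches and no SMAD box, T-box or MEF2 match. The Mef2c window held 2 E-box, 1 NK2 and 1 SMAD box matches and none of the others. Among 32841 windows of the same length, 72.3% held an E-box, 25.4% GATA, 46.4% NK2, 13.7% T-box, 49.6% SMAD box and 3.19% MEF2 letters. A match describes these letters and is not a measured binding site.

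The array levels and cell type markers were checked before the factors were compared. Array medians were 7.83 to 7.91 in MEFs and 7.36 to 7.43 in CFs, so levels were not compared between the cell types, and levels of different probe sets were not compared with each other. In MEFs the mean of 10 fibroblast markers was 12.13 to 13.20 and that of 12 endothelial markers 7.25 to 7.81. In CFs the fibroblast mean was 10.74 to 11.48 and the endothelial mean 10.15 to 11.02 in 8 of 9 cultures, with the adherens junction gene Cdh5 at 12.59 to 12.86 in those cultures. CF HNGMT+SB replicate 3 stood apart from its group, with an endothelial mean of 9.28 against 11.01 and 11.02 in replicates 1 and 2, an epicardial mean of 9.18 against 8.15 and 8.18 (7 genes), and a fibroblast mean of 11.48 against 10.79 and 10.74. Every CF result that includes SB is therefore also given without it. On all 18 MEF arrays and on all 9 CF arrays, the 5 probe sets averaged above the 40th percentile of the tested probe sets, so each would pass a filter on dim values. In bulk RNA, fewer cells expressing a gene and less RNA per cell cannot be told apart.

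The first question was whether each probe set read more RNA in MEFs given HNGMT. A probe set was called when limma's adjusted p (Benjamini-Hochberg over all 21789 probe sets) was under 0.05 and the fold was at least 1.5. Of the 5 probe sets, Hand2 rose strongly with HNGMT, Tbx5 fell, Gata4 was slightly higher and Mef2c lower by amounts under the fold threshold, and Nkx2-5 passed no test. With SB, 1 of 5 was called up and 1 down, where 9.96% of all probe sets were called in either direction. With TGFb1, 1 of 5 was called up and 0 down against 10.4% of all, and with DMSO 1 up and 1 down against 9.36% of all. At adjusted p alone, without the fold, 4 of 5 passed with SB, 3 of 5 with TGFb1 and 4 of 5 with DMSO (41.7% of all probe sets with SB, 43.7% with TGFb1 and 40.3% with DMSO).

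**Figure D1:**
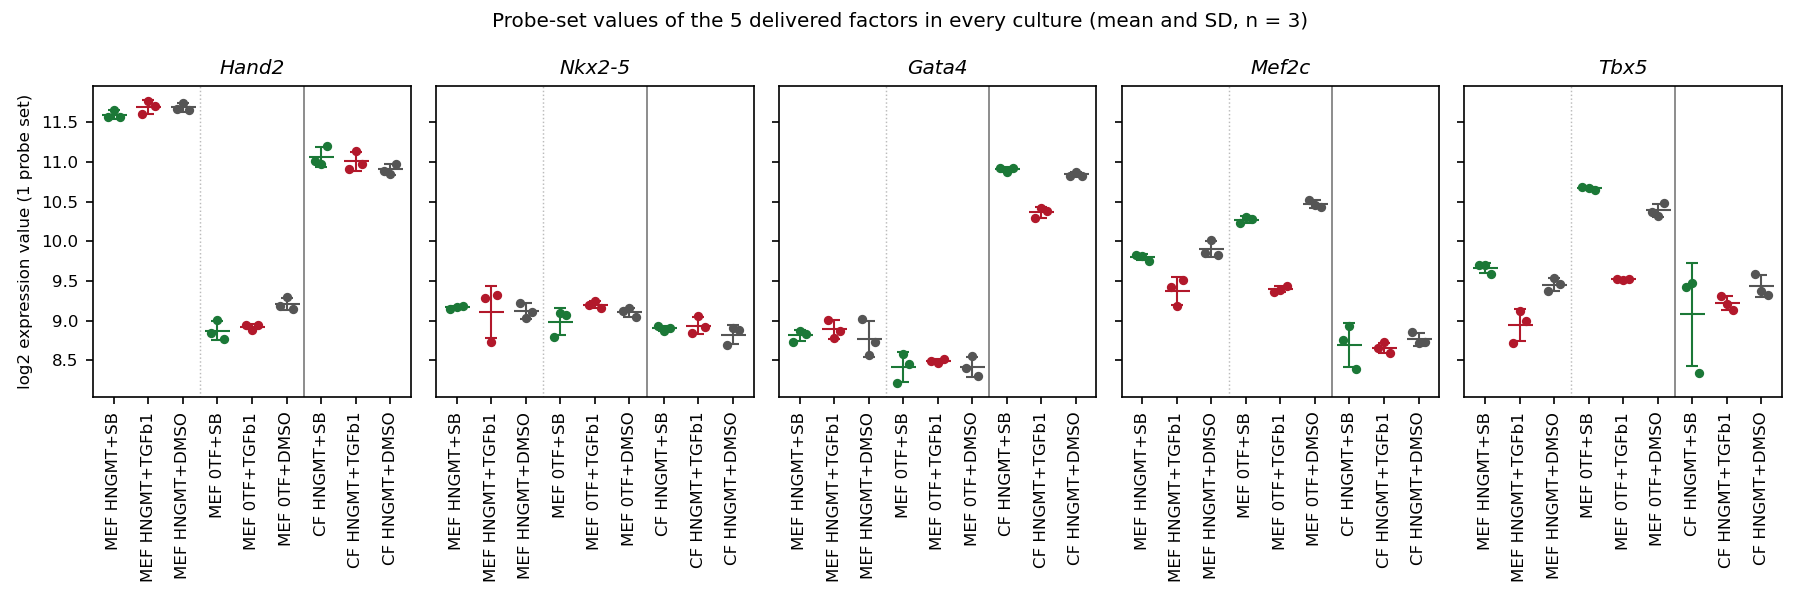
The log2 value of each factor's probe set (y axis) is plotted for every culture in the 9 groups (x axis), with group mean and SD (n = 3) in green for SB, red for TGFb1 and grey for DMSO. Hand2 lies at 11.57 to 11.77 in all HNGMT MEFs and at 8.77 to 9.30 in all 0TF MEFs, while Mef2c and Tbx5 are highest in 0TF MEFs with SB or DMSO. Levels are not comparable between panels or between MEFs and CFs.

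Hand2 was the one probe set of the 5 that was called up with the factors. With SB, Hand2 had values of 11.57, 11.66 and 11.57 in HNGMT MEFs, against 8.85, 9.01 and 8.77 in 0TF MEFs. With TGFb1 it had 11.60, 11.77 and 11.71 in HNGMT MEFs, against 8.95, 8.89 and 8.94 in 0TF MEFs, and with DMSO 11.66, 11.75 and 11.65 in HNGMT MEFs, against 9.18, 9.30 and 9.15 in 0TF MEFs. All 9 HNGMT cultures lay more than 2 log2 units above all 9 0TF cultures. The log2 fold changes were 2.72 with SB (SE 0.06, 6.60-fold, limma adjusted p = 2.67e-16), 2.77 with TGFb1 (SE 0.06, 6.81-fold, adjusted p = 2.43e-16) and 2.48 with DMSO (SE 0.06, 5.58-fold, adjusted p = 1.45e-15). By size, Hand2 ranked 72, 69 and 81 of 21789 probe sets in these 3 comparisons. The delivered Hand2 is the one that the methods measure with a mouse assay, and whether the higher reading came from the vector, from the endogenous gene or from both was not tested.

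Nkx2-5, the homeodomain factor, passed the test with the factors in none of the 3 media. Its values were 9.15, 9.18 and 9.18 in HNGMT MEFs with SB, against 8.79, 9.10 and 9.08 in 0TF MEFs with SB. With TGFb1 they were 9.28, 8.74 and 9.32 in HNGMT MEFs, against 9.20, 9.25 and 9.16 in 0TF MEFs, and with DMSO 9.23, 9.03 and 9.11 in HNGMT MEFs, against 9.12, 9.16 and 9.05 in 0TF MEFs. The HNGMT+TGFb1 replicate 2 was the lowest of the 18 MEF cultures, and the groups overlapped with TGFb1 and with DMSO. The 95% confidence intervals of the log2 fold change were -0.06 to 0.42 with SB, -0.33 to 0.15 with TGFb1 and -0.23 to 0.25 with DMSO (adjusted p = 0.24, 0.55 and 0.95), so a rise of the size seen for Hand2 lay outside all 3 intervals. No comparison of the 15 made passed the test for this probe set.

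Gata4, the zinc finger factor, was slightly higher in HNGMT MEFs. Its values were 8.73, 8.88 and 8.83 in HNGMT MEFs with SB, against 8.22, 8.59 and 8.45 in 0TF MEFs with SB. With TGFb1 they were 9.01, 8.78 and 8.88 in HNGMT MEFs, against 8.50, 8.47 and 8.52 in 0TF MEFs. With DMSO they were 9.02, 8.56 and 8.73 in HNGMT MEFs, against 8.40, 8.56 and 8.30 in 0TF MEFs. The groups did not overlap in any of the 3 media, although with DMSO HNGMT replicate 2 lay next to 0TF replicate 2. The log2 fold changes were 0.40 with SB, 0.39 with TGFb1 and 0.35 with DMSO (SE 0.10 each, limma adjusted p = 0.0044, 0.0049 and 0.010), which is a 1.28-fold to 1.32-fold difference and under the threshold of 1.5-fold. With DMSO the adjusted p was 0.070 without HNGMT+DMSO replicate 1 (0.23) and 0.056 without 0TF+DMSO replicate 3 (0.29).

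Mef2c, the MADS box factor, was lower in HNGMT MEFs with SB and with DMSO but not with TGFb1. With SB the values were 9.83, 9.81 and 9.76 in HNGMT MEFs, against 10.23, 10.31 and 10.28 in 0TF MEFs. With DMSO they were 9.86, 10.02 and 9.83 in HNGMT MEFs, against 10.52, 10.46 and 10.43 in 0TF MEFs. With TGFb1 they were 9.42, 9.18 and 9.52 in HNGMT MEFs, against 9.37, 9.39 and 9.44 in 0TF MEFs, and the groups overlapped. The log2 fold changes were -0.47 with SB (SE 0.07, limma adjusted p = 1.32e-05), -0.03 with TGFb1 (SE 0.07, adjusted p = 0.79) and -0.57 with DMSO (SE 0.07, adjusted p = 1.65e-06), none of which reached 1.5-fold. Without HNGMT+DMSO replicate 2 or without 0TF+DMSO replicate 3 the difference with DMSO was -0.62 or -0.59 and passed that threshold.

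Tbx5, the T-box factor, fell in HNGMT MEFs. With SB the values were 9.70, 9.70 and 9.59 in HNGMT MEFs, against 10.68, 10.67 and 10.65 in 0TF MEFs. With TGFb1 they were 8.72, 9.12 and 8.99 in HNGMT MEFs, against 9.53, 9.52 and 9.53 in 0TF MEFs, and with DMSO 9.37, 9.54 and 9.46 in HNGMT MEFs, against 10.37, 10.33 and 10.48 in 0TF MEFs. No HNGMT culture reached any 0TF culture of the same medium. The log2 fold changes were -1.01 with SB (SE 0.07, limma adjusted p = 2.99e-09) and -0.94 with DMSO (SE 0.07, adjusted p = 8.79e-09), both called. With TGFb1 the log2 fold change of -0.58 (SE 0.07, adjusted p = 3.83e-06) lay just under the threshold and passed it without HNGMT+TGFb1 replicate 2 (-0.67) or replicate 3 (-0.60).

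Fibroblast markers were lower in HNGMT than in 0TF MEFs in all 3 media, as Tbx5 was, while Mef2c was not lower with TGFb1. The mean of the 10 markers was 12.57 to 12.63 in HNGMT MEFs against 13.18 to 13.20 in 0TF MEFs with SB, 12.13 to 12.16 against 12.82 to 12.86 with TGFb1, and 12.64 to 12.65 against 13.10 to 13.16 with DMSO. Of the 10, 5 were called down with SB, 5 with TGFb1 and 4 with DMSO, and 0 were called up. Over all probe sets, 9.96% were called in either direction with SB, 10.4% with TGFb1 and 9.36% with DMSO. The platelet-derived growth factor receptor gene Pdgfra, a defining marker, averaged 11.33 in HNGMT MEFs against 12.45 in 0TF MEFs with SB, 10.48 against 11.38 with TGFb1 and 11.22 against 12.24 with DMSO, while Vim, which encodes vimentin, stayed between 14.14 and 14.22 in all 18 cultures. Smooth muscle and epicardial marker means moved too. The mean of 6 smooth muscle markers was 10.37 to 10.50 in HNGMT MEFs against 9.10 to 9.29 in 0TF MEFs with SB, 10.72 to 10.78 against 10.17 to 10.33 with TGFb1 and 10.47 to 10.56 against 9.42 to 9.51 with DMSO, with 4 of 6 called up and 0 down with SB, 2 up and 1 down with TGFb1 and 4 up and 0 down with DMSO. The mean of 7 epicardial markers was 8.31 to 8.37 in HNGMT MEFs against 7.87 to 7.93 in 0TF MEFs with SB, 8.57 to 8.64 against 7.86 to 7.89 with TGFb1 and 8.34 to 8.42 against 7.89 to 7.93 with DMSO, with 2 of 7 called up and 0 down with SB, 5 up and 1 down with TGFb1 and 2 up and 0 down with DMSO. The part of these markers in the factor results was not tested.

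**Figure D2:**
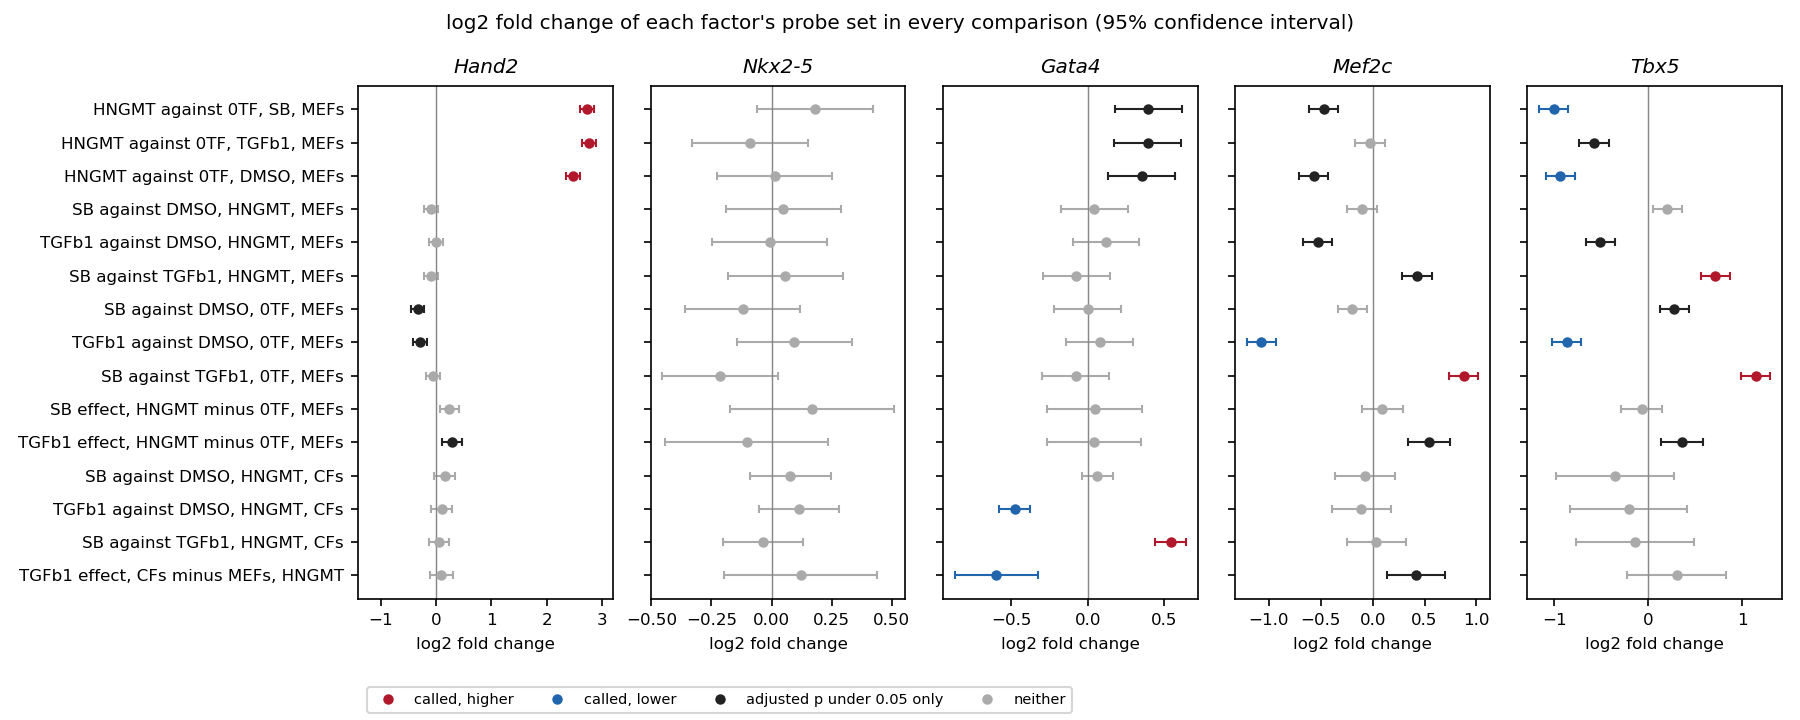
The log2 fold change of each factor's probe set (x axis, a different range in each panel) is plotted for the 15 comparisons (y axis) with 95% confidence intervals, in red where called higher, blue where called lower, black where only the adjusted p passed and grey otherwise. Hand2 is called in the 3 HNGMT comparisons of the MEFs, at 2.48 to 2.77, Nkx2-5 in none, Gata4 in 3 comparisons that involve CFs, and Mef2c and Tbx5 in comparisons within MEFs.

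The second question was whether SB or TGFb1 changed the RNA read at the 5 genes. In 0TF MEFs, which were not given the factors, TGFb1 lowered Mef2c and Tbx5, and in HNGMT MEFs the same probe sets were lower by smaller amounts. Against DMSO, TGFb1 called 0 of 5 up and 2 down in 0TF MEFs, where 10.8% of all probe sets were called, and 0 of 5 in HNGMT MEFs, where 5.99% were. At adjusted p alone, 3 of 5 passed in 0TF MEFs and 2 of 5 in HNGMT MEFs (47.4% of all probe sets in 0TF MEFs and 35.4% in HNGMT MEFs). SB against DMSO called 0 of 5 in HNGMT MEFs (0.812% of all) and 0 of 5 in 0TF MEFs (2.43% of all), and in 0TF MEFs 2 of 5 passed the adjusted p alone, against 16.2% of all. At an unadjusted p under 0.05, limma passed 2 of 5 for TGFb1 in HNGMT MEFs (41.5% of all), 1 for SB in HNGMT MEFs (17.2% of all) and 3 for SB in 0TF MEFs (25% of all).

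Mef2c fell by 1.07 on the log2 scale with TGFb1 in 0TF MEFs (SE 0.07, limma adjusted p = 3.50e-10), with values of 9.37, 9.39 and 9.44 with TGFb1 against 10.52, 10.46 and 10.43 with DMSO. In HNGMT MEFs the values were 9.42, 9.18 and 9.52 with TGFb1 against 9.86, 10.02 and 9.83 with DMSO, a difference of -0.53 (SE 0.07, adjusted p = 5.59e-06) that was under 1.5-fold. It reached that threshold without HNGMT+TGFb1 replicate 3 (-0.60). With SB, Mef2c did not pass the test against DMSO in HNGMT MEFs (-0.10, SE 0.07, adjusted p = 0.53) or in 0TF MEFs (-0.20, SE 0.07, adjusted p = 0.057). The TGFb1 effect on Mef2c differed between HNGMT and 0TF MEFs by 0.54 (SE 0.09, adjusted p = 0.00024). In the order of the 6 MEF means, 0TF+DMSO (10.47) and 0TF+SB (10.27) were highest, HNGMT+DMSO (9.90) and HNGMT+SB (9.80) overlapped each other, and 0TF+TGFb1 (9.40) and HNGMT+TGFb1 (9.37) overlapped at the low end.

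Tbx5 fell by 0.87 on the log2 scale with TGFb1 in 0TF MEFs (SE 0.07, limma adjusted p = 1.95e-08), with values of 9.53, 9.52 and 9.53 with TGFb1 against 10.37, 10.33 and 10.48 with DMSO. In HNGMT MEFs the values were 8.72, 9.12 and 8.99 with TGFb1 against 9.37, 9.54 and 9.46 with DMSO, a difference of -0.51 (SE 0.07, adjusted p = 2.40e-05) that was under 1.5-fold and reached it without HNGMT+TGFb1 replicate 2 (-0.60). SB moved Tbx5 the other way. The SB values were 10.68, 10.67 and 10.65 in 0TF MEFs, all above the DMSO cultures, with a log2 fold change of 0.28 (SE 0.07, adjusted p = 0.014) that was under 1.5-fold. Without 0TF+DMSO replicate 1 or replicate 2 its adjusted p was 0.051 or 0.068. In HNGMT MEFs the SB values were 9.70, 9.70 and 9.59 and the log2 fold change of 0.20 (SE 0.07, adjusted p = 0.12) did not pass. The TGFb1 effect on Tbx5 differed between HNGMT and 0TF MEFs by 0.36 (SE 0.10, adjusted p = 0.013), also under 1.5-fold. The 6 MEF means ran from 0TF+SB (10.67) through 0TF+DMSO (10.39), HNGMT+SB (9.66), 0TF+TGFb1 (9.52) and HNGMT+DMSO (9.46) to HNGMT+TGFb1 (8.95), and of the neighbours in this order only 0TF+TGFb1 and HNGMT+DMSO overlapped.

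Set directly against each other, SB and TGFb1 separated the same 2 probe sets. Tbx5 was called up in SB over TGFb1 in HNGMT MEFs (0.72, SE 0.07, limma adjusted p = 3.80e-07), the 1 call among the 5 where 7.51% of all probe sets were called, and Mef2c passed at adjusted p alone (0.43, SE 0.07, adjusted p = 4.89e-05), as 38.2% of all did. In 0TF MEFs both were called up, Tbx5 at 1.15 (SE 0.07, adjusted p = 4.03e-10) and Mef2c at 0.88 (SE 0.07, adjusted p = 4.30e-09), where 12.6% of all probe sets were called. These comparisons share their SB and TGFb1 cultures with those against DMSO. Fibroblast marker means were again lowest with TGFb1, at 12.13 to 12.16 against 12.64 to 12.65 with DMSO in HNGMT MEFs and 12.82 to 12.86 against 13.10 to 13.16 in 0TF MEFs, and their part in the Mef2c and Tbx5 values was not tested.

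The SB and TGFb1 effects on Hand2 were read in HNGMT and in 0TF MEFs. In HNGMT MEFs, the SB (-0.09, SE 0.06, adjusted p = 0.53) and TGFb1 (0.00, SE 0.06, adjusted p = 0.97) effects did not pass the test, with 95% confidence intervals of -0.21 to 0.04 and -0.12 to 0.13. In 0TF MEFs, Hand2 was lower with SB (-0.33, SE 0.06, limma adjusted p = 0.00052) and with TGFb1 (-0.28, SE 0.06, adjusted p = 0.00062) than with DMSO, in 3 of 3 cultures each, and neither difference reached 1.5-fold. Both agents, which act on the pathway in opposite directions, gave differences of the same sign in 0TF MEFs. These differences share the 0TF+DMSO cultures as reference, so they are not independent. Set directly against each other in 0TF MEFs, SB and TGFb1 did not differ by limma's test (-0.05, SE 0.06, adjusted p = 0.51). The TGFb1 effect differed between HNGMT and 0TF MEFs by 0.29 (SE 0.08, adjusted p = 0.013). The SB effect differed by 0.24 (SE 0.08, adjusted p = 0.095). When single arrays were left out, the adjusted p of the SB difference ran from 0.018 (without 0TF+SB replicate 2) to 0.24. Gata4 and Nkx2-5 passed no SB or TGFb1 test in MEFs, where the 95% confidence intervals of the log2 fold changes lay within -0.30 to 0.34 for Gata4 and within -0.45 to 0.33 for Nkx2-5.

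SDs within the MEF groups of 3 were 0.00 to 0.33 over the 5 probe sets. Across them, the tests of the difference between HNGMT and 0TF MEFs called 0 for the SB effect (2.25% of all probe sets) and 0 for the TGFb1 effect (7.57% of all). At adjusted p alone, 3 of 5 passed for the TGFb1 effect, Hand2, Mef2c and Tbx5, where 31.4% of all did. At an unadjusted p under 0.05, limma passed 1 of 5 for the SB effect (Hand2, with 18.1% of all) and 3 for the TGFb1 effect (38.8% of all). All 3 differences of the TGFb1 effect were positive, so the TGFb1 effect was less negative in HNGMT MEFs for each of them. In HNGMT MEFs these probe sets may read delivered RNA beside the endogenous transcript, and its part in the differences was not tested.

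In CFs with HNGMT, Gata4 was the 1 probe set of the 5 that was called. CF calls used the lower fold threshold that the methods give for these cells, a log2 difference of at least 0.32. TGFb1 against DMSO called 0 of 5 up and 1 down (5.31% of all probe sets), SB against TGFb1 called 1 up and 0 down (7.62% of all) and SB against DMSO called 0 of 5 (0.229% of all), with 0 of 5 also at an unadjusted p under 0.05 (6.21% of all). Gata4 had values of 10.29, 10.42 and 10.39 with TGFb1, against 10.83, 10.88 and 10.83 with DMSO, a log2 fold change of -0.48 (SE 0.04, limma adjusted p = 0.00063). With SB the values were 10.92, 10.87 and 10.93, which overlapped with DMSO (0.06, SE 0.04, adjusted p = 0.94) and lay above TGFb1 (0.54, SE 0.04, adjusted p = 0.00017).

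**Figure D3:**
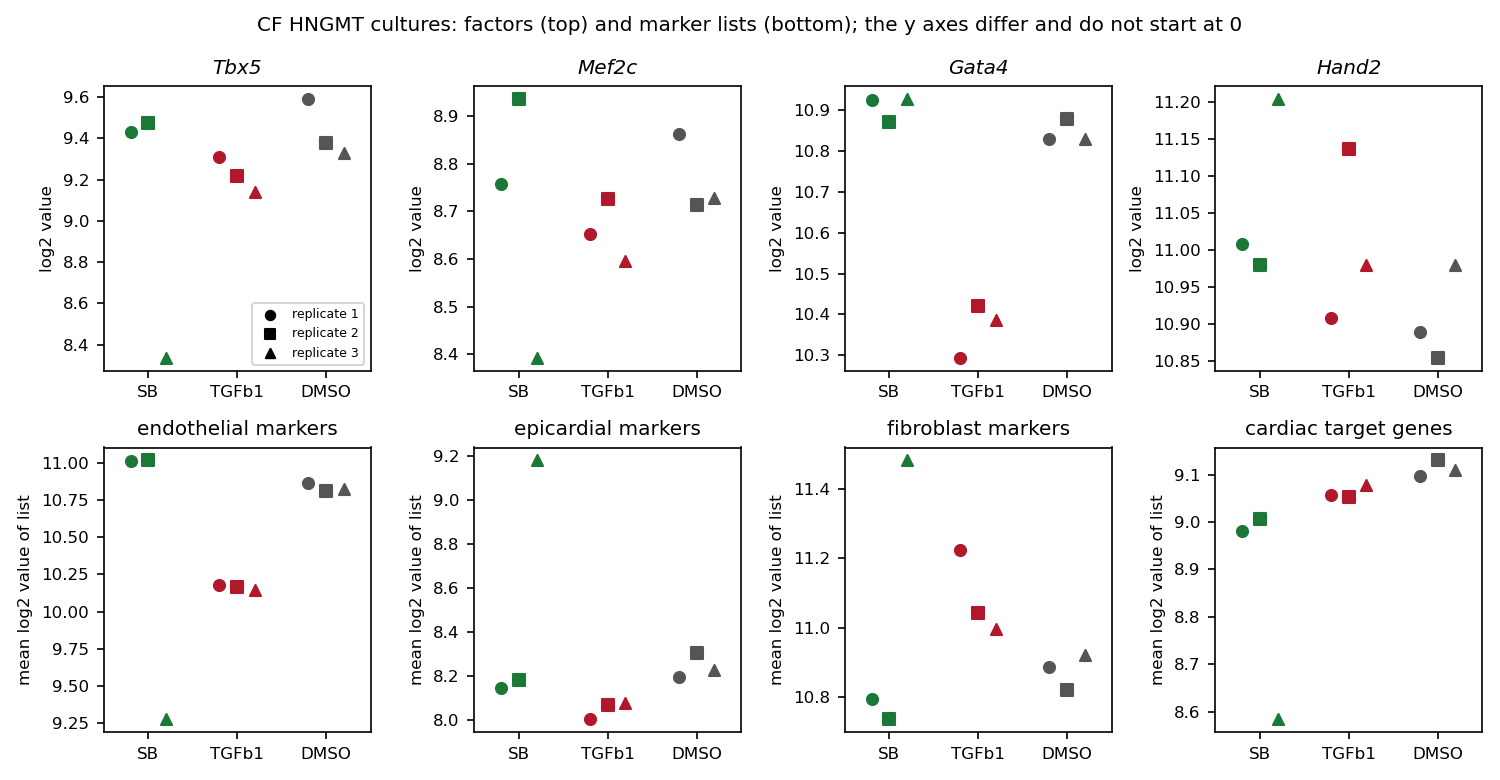
For the 9 CF HNGMT cultures, log2 values of 4 of the factors (top) and mean log2 values of 4 gene lists (bottom) are plotted on the y axis by medium (x axis), with circles, squares and triangles for replicates 1, 2 and 3. The y axes differ and do not start at 0. Gata4 is lower in all 3 TGFb1 cultures, and SB replicate 3 is low in Tbx5 (8.34), Mef2c (8.39) and endothelial markers (9.28) but not in Gata4 (10.93).

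The endothelial marker mean was also lower with TGFb1 in CFs, at 10.15 to 10.18 against 10.81 to 10.87 with DMSO, with a median log2 fold change of -0.70 over the list. With all 9 CF arrays in the fit, whose spread includes SB replicate 3, 1 of 12 markers was called down, the receptor gene Kdr (-1.22, adjusted p = 0.023). Over all 21789 probe sets, 1156 (5.31%) were called in that fit and 2303 with only the TGFb1 and DMSO cultures. The count over all probe sets without SB replicate 3 was not made. In fits added after the data were seen, 8 of 12 were called down and 0 up with only the TGFb1 and DMSO cultures, and likewise 8 down and 0 up with all CF cultures but SB replicate 3. Among those 8 were Egfl7 (-1.36), Esam (-1.30) and Erg (-1.07), while Cdh5 differed by 0.03. In CF HNGMT+SB replicate 3 the endothelial mean was 9.28, below every TGFb1 culture, and Gata4 was 10.93, above every TGFb1 and DMSO culture. That culture also had the highest epicardial mean (9.18) and fibroblast mean (11.48) of the CF cultures. The part of any of these markers in the Gata4 result was not tested. Without SB replicate 3, Gata4 was still called up with SB over TGFb1 (0.53, adjusted p = 0.00011), and its difference between SB and DMSO was 0.05. Among relatives of the 5 factors, Tbx20, a T-box gene of the heart, was the 1 of 18 called in CFs with TGFb1 (-1.04, SE 0.05, adjusted p = 2.42e-05), at 10.67 with TGFb1 against 11.72 with DMSO on average. With only the compared cultures in the fit, and also without SB replicate 3, 4 of 18 were called down and 0 up, with Gata2 (-0.62), Mef2a (-0.40) and Gata6 (-0.35) beside Tbx20. The counts over all probe sets given for the endothelial markers apply to these relatives too.

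The other 4 factors passed no test within CFs. Hand2 was 11.01, 10.98 and 11.20 with SB, 10.91, 11.14 and 10.98 with TGFb1 and 10.89, 10.85 and 10.98 with DMSO, and Nkx2-5 was between 8.69 and 9.05 in all 9 cultures. Mef2c was 8.76, 8.94 and 8.39 with SB, 8.65, 8.73 and 8.60 with TGFb1 and 8.86, 8.71 and 8.73 with DMSO. Tbx5 was 9.43, 9.47 and 8.34 with SB, 9.31, 9.22 and 9.14 with TGFb1 and 9.59, 9.38 and 9.33 with DMSO. The low value of replicate 3 with SB set the direction of both SB effects: the log2 fold change of SB over DMSO was -0.35 for Tbx5 (SE 0.27, adjusted p = 0.95) and -0.07 for Mef2c (SE 0.12, adjusted p = 0.98) with it, and 0.02 (adjusted p = 0.98) and 0.08 (adjusted p = 0.84) without it. Hand2 and Nkx2-5 in SB over DMSO were 0.09 and 0.08 without it, against 0.16 and 0.08 with it. In SB over TGFb1, Hand2 was -0.01 and Nkx2-5 -0.04 without it, and Mef2c was 0.19 (adjusted p = 0.11). Tbx5 in SB over TGFb1 was -0.14 with it (adjusted p = 0.88) and 0.23 without it (adjusted p = 0.089). Without that culture, 377 of all probe sets were called for SB over DMSO against 50 with it, and 3199 against 1660 for SB over TGFb1.

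The TGFb1 effect, given at the same dose in both cell types, was compared between CFs and MEFs with HNGMT. Gata4 was called, with a difference of -0.60 (SE 0.13, limma adjusted p = 0.0028), from an effect of -0.48 in CFs and 0.12 in MEFs, the 1 call among the 5 where 4.47% of all probe sets were called. The difference stood near the threshold of 1.5-fold and fell under it on leaving out any one of 5 cultures, MEF HNGMT+DMSO replicate 2 (-0.49) or 3 (-0.58), MEF HNGMT+TGFb1 replicate 1 (-0.54), CF HNGMT+DMSO replicate 2 (-0.58) or CF HNGMT+TGFb1 replicate 1 (-0.56). Mef2c passed at adjusted p alone (0.42, SE 0.13, adjusted p = 0.036), as 15.6% of all did, from an effect of -0.11 in CFs and -0.53 in MEFs. Its adjusted p was over 0.05 without any one of 6 cultures, at most 0.12 (0.32, without MEF HNGMT+TGFb1 replicate 2). The SB doses differed, and the SB effects of the 5 factors are only placed side by side: 0.16 in CFs and -0.09 in MEFs for Hand2, 0.08 and 0.05 for Nkx2-5, 0.06 and 0.04 for Gata4, -0.07 and -0.10 for Mef2c, and -0.35 and 0.20 for Tbx5. Without CF HNGMT+SB replicate 3 the CF values were 0.09 for Hand2, 0.08 for Nkx2-5, 0.05 for Gata4, 0.08 for Mef2c and 0.02 for Tbx5.

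The relatives of the 5 factors, which the vectors do not carry, were read in MEFs as well. Of 18 family members measured with a probe set, 1 was called up and 4 down in HNGMT against 0TF MEFs with SB, 1 up and 1 down with TGFb1, and 1 up and 3 down with DMSO, with median log2 fold changes of 0.09, 0.00 and 0.02 against medians of 0.01, -0.04 and -0.01 over all probe sets. The shares of all probe sets called in either direction were 9.96%, 10.4% and 9.36% in the same order. Tbx2, a T-box repressor of the atrioventricular canal, rose in all 3 media (0.76, 0.84 and 0.64 with SB, TGFb1 and DMSO). Tbx18, a T-box factor of the epicardium and sinus node, fell in all 3 (-0.85, -0.88 and -0.63). Tbx4, the hindlimb relative of Tbx5, fell with HNGMT under SB (-0.81) and DMSO (-0.95), and it also fell with TGFb1 in 0TF MEFs (-1.26, adjusted p = 3.35e-14) and in HNGMT MEFs (-0.73, adjusted p = 1.42e-10), the conditions in which Tbx5 was lower. Tbx15, a T-box gene of skin and limb, fell with HNGMT under SB (-0.68) and DMSO (-0.68). Gata6, a close relative of Gata4 in the heart, rose with SB over DMSO in 0TF MEFs (0.92, adjusted p = 6.27e-09) and fell with HNGMT under SB (-1.43), while under DMSO its difference of -0.57 was under 1.5-fold and no other GATA relative was called.

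Partners and cofactors of the 5 proteins moved in both directions. Of 21 measured, 3 were called up and 4 down in HNGMT against 0TF MEFs with SB, 4 up and 5 down with TGFb1, and 2 up and 4 down with DMSO. The shares of all probe sets called were 9.96%, 10.4% and 9.36% in the same order. The median log2 fold changes of the list were 0.05, -0.12 and -0.07. Myocd, the cofactor of serum response factor, averaged 10.28 in HNGMT MEFs against 7.09 in 0TF MEFs with DMSO (3.18, SE 0.07, adjusted p = 3.96e-16), and it rose further with SB over DMSO in HNGMT MEFs (0.67, adjusted p = 4.37e-06) and fell with TGFb1 (-0.72, adjusted p = 1.78e-07). Zfpm1, which encodes a GATA cofactor, rose (1.45 with DMSO), while its relative Zfpm2, which binds Gata4, fell (-0.94). Meis1, a homeodomain factor of the cardiac and limb fields, fell by 1.00, Twist1, a helix-loop-helix partner of the Hand proteins, by 0.89, and the calcium-regulated factor gene Nfatc4 by 0.65 on the log2 scale with DMSO.

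**Figure D4:**
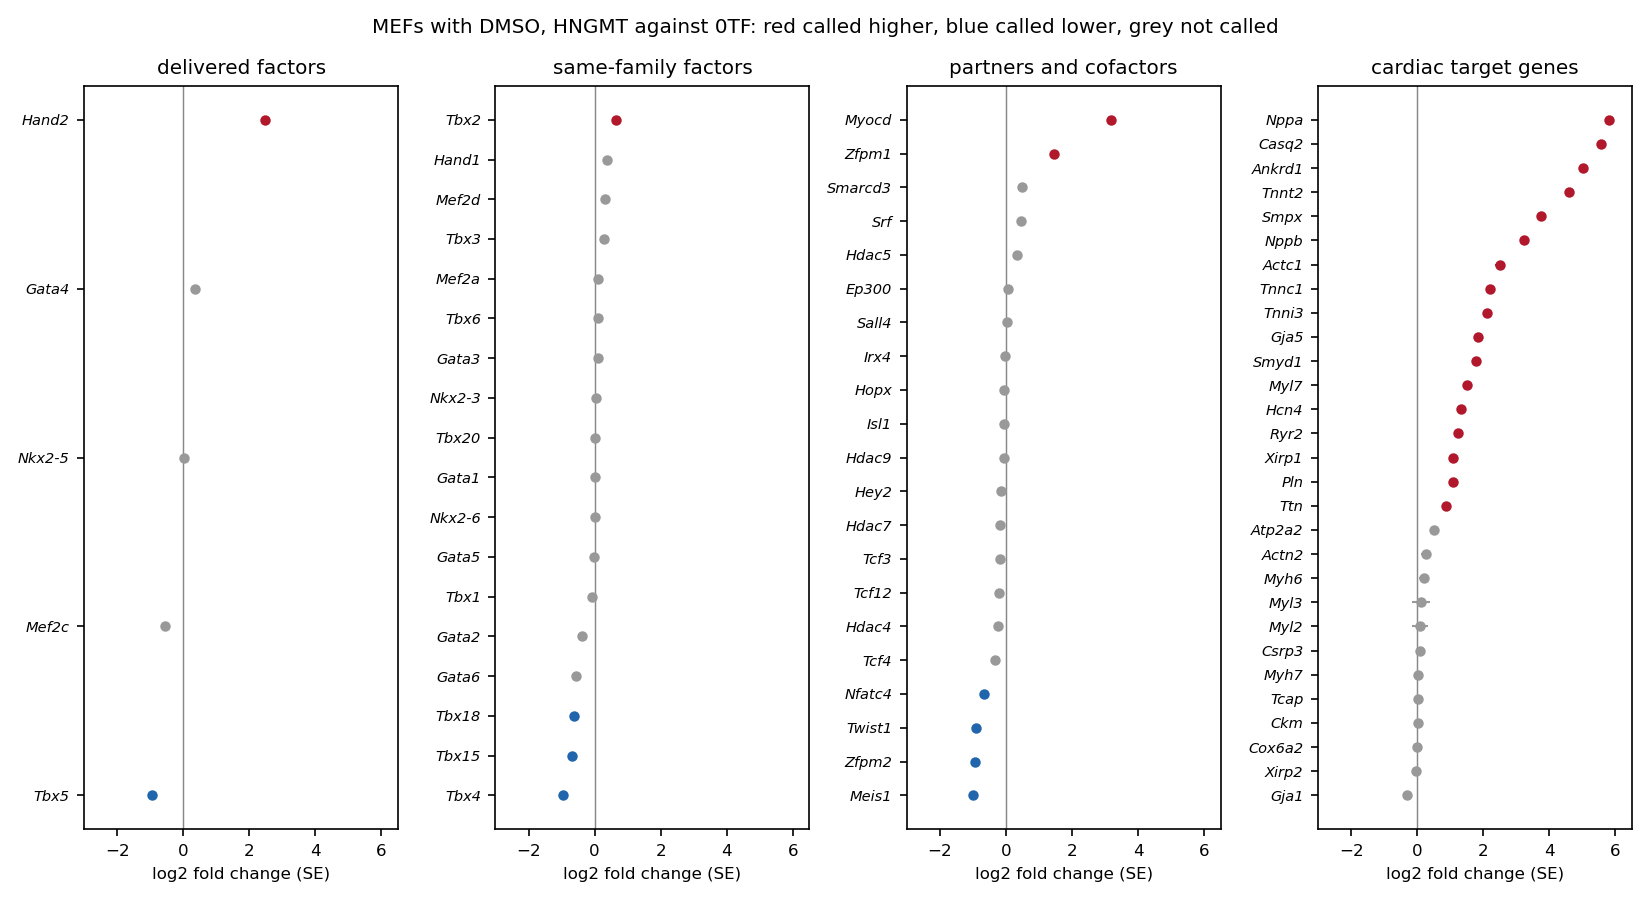
For MEFs with DMSO, the log2 fold change of HNGMT against 0TF (x axis, with SE) is plotted for the genes of 4 lists (y axis), in red where called higher, blue where called lower and grey otherwise. Target genes reach 5.81 (Nppa), above the 2.48 of Hand2, and the relatives stay between -0.95 (Tbx4) and 0.64 (Tbx2).

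Cardiac genes known as targets of the 5 proteins rose in the same cultures, in which 3 of the 5 factor probe sets were not called with DMSO. Over all probe sets, 9.96% were called in either direction with SB, 10.4% with TGFb1 and 9.36% with DMSO. Of 29 measured targets, 21 were called up and 0 down with SB (19 and 0 without HNGMT+SB replicate 2), 16 up and 1 down with TGFb1 and 17 up and 0 down with DMSO, with medians of 1.58, 0.69 and 1.08. Nppa, the atrial natriuretic peptide gene and a target of Gata4, Nkx2-5 and Tbx5, averaged 12.84 in HNGMT MEFs against 7.03 in 0TF MEFs with DMSO (5.81, SE 0.08, adjusted p = 1.91e-18). Casq2, the calcium store protein (5.58), Ankrd1, a titin-binding repeat protein (5.01), Tnnt2, cardiac troponin T (4.61), Smpx (3.74), Nppb, the ventricular natriuretic peptide (3.24), Actc1, cardiac actin (2.50), and Tnnc1, troponin C (2.19), rose as well. The list was drawn up knowing that cardiac genes rise in these cultures, so its count is not independent evidence of that direction.

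The compound effects on the targets did not follow a single direction. With SB over DMSO in HNGMT MEFs, 6 of 29 targets were called up and 0 down, led by Pln, the inhibitor of the calcium pump (1.46, adjusted p = 2.88e-08), Actc1 (0.84), Tnni3, cardiac troponin I (0.71), and Myh6, the alpha myosin heavy chain (0.67). HNGMT+SB replicate 2 lay above its group here, with a target mean of 9.85 against 9.59 and 9.56 in replicates 1 and 3 and Myh6 at 8.78 against 7.99 and 8.07. Without it, in a fit added after the data were seen, 3 targets were called up and 0 down, Pln (1.37), Tnni3 (0.64) and Actc1 (0.59), and Myh6 (0.42, adjusted p = 0.0061) was under 1.5-fold. With TGFb1 over DMSO, 5 were called up and 5 down, with Nppb (1.32) and the actin-binding protein gene Xirp1 (1.14) up, and Actc1 (-0.98) and Tnni3 (-0.75) down. In CFs, TGFb1 raised Nppb (1.29) and Xirp1 (1.19) and lowered Tnni3 (-1.36) and the calcium release channel gene Ryr2 (-0.71), with 3 of 29 called up and 3 down (5 up and 7 down without SB replicate 3). With all 9 CF arrays, 5.31% of all probe sets were called for TGFb1, and that share was not counted without SB replicate 3. SB over DMSO in CFs called 0 of 29 up and 2 down (median -0.14), Tnnc1 (-0.74, adjusted p = 0.049) and Xirp1 (-0.46, adjusted p = 0.0086), where 0.229% of all probe sets were called. Without SB replicate 3, 1 was called up, Pln (0.34), and 5 down, with Tnnc1 at -0.60 and Xirp1 at -0.46. Over all probe sets, 377 were called for SB over DMSO without that culture, against 50 with it. None of the 5 factor probe sets was called by either compound against DMSO in HNGMT MEFs, where 0.812% of all probe sets were called with SB and 5.99% with TGFb1. With TGFb1, Mef2c (-0.53) and Tbx5 (-0.51) passed there at adjusted p alone.

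**Figure D5:**
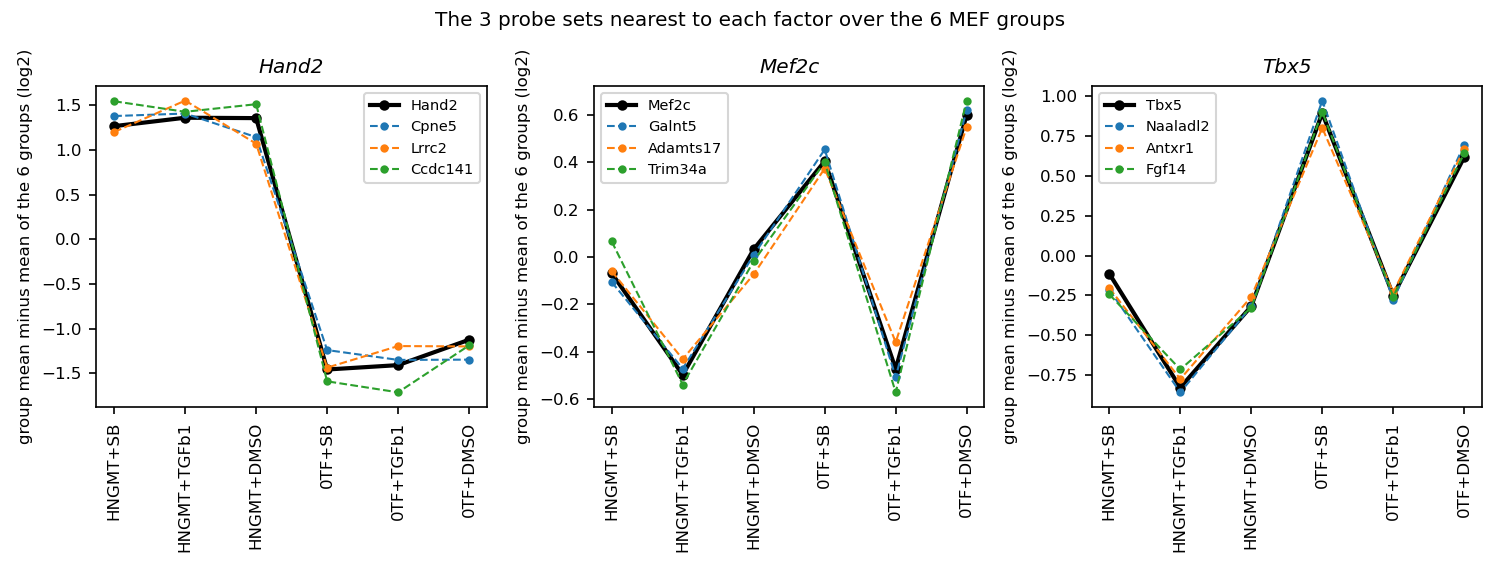
Means of the 6 MEF groups (x axis), each profile centred on its own mean (y axis, log2), are plotted for Hand2, Mef2c and Tbx5 (black) and for the 3 probe sets nearest to each (dashed). Mef2c and its neighbours are lowest in both TGFb1 groups, and Tbx5 and its neighbours are highest in 0TF+SB and lowest in HNGMT+TGFb1.

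For the 3 probe sets whose 6 MEF means spanned at least 1.5-fold, the genes with the most similar profile were found by the root mean square difference of the centred log2 means over the 6 groups. Nearest to Hand2 (span 2.82) were Cpne5 (0.16), Lrrc2 (0.17) and Ccdc141 (0.19). The nearest to Mef2c (span 1.10) were Galnt5 (0.03), Adamts17 (0.07) and Trim34a (0.08), and to Tbx5 (span 1.72) Naaladl2 (0.06), Antxr1 (0.07) and Fgf14 (0.07). The distance of the best match was thus larger for Hand2 than for Mef2c and Tbx5. Nkx2-5 and Gata4 spanned 0.21 and 0.47, under the limit, and no neighbours were sought. All profiles rest on the same 18 arrays.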

How the data were processed

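The deposited values are log2 expression values that the authors made from Affymetrix Mouse Gene ST arrays. The submitters' processing notes and the study's methods name Affymetrix Microarray Suite and PartekGS, but the background correction and normalization are not given in the sources used here, and the values were used as deposited. The number of arrays limits the precision. Of 35556 probe sets, 21789 carried 1 gene symbol and were tested. limma (version 3.58.1, R 4.3.3) was fitted to the 18 MEF arrays (12 residual degrees of freedom), to the 9 CF arrays (6) and, for the difference of TGFb1 effects between cell types, to all 27 (18), with Benjamini-Hochberg adjustment over all 21789. The thresholds, adjusted p under 0.05 with 1.5-fold in MEFs and a log2 difference of 0.32 in CFs, followed the study's methods, and differences between effects used 1.5-fold. The script was tested on simulated data. The alternatives were other fits, a replicate block, quantile normalization, median centring, a filter on dim probe sets, 1 probe set per gene, all probe sets, other fold thresholds and leaving out each array. Fits of the target, endothelial and relative lists without MEF HNGMT+SB replicate 2 or CF HNGMT+SB replicate 3, and with only the compared CF groups, were added after the data were seen. All 5 factors were named in every comparison. Of relatives, partners and targets, the called genes with the largest change were named, up to 8 per list for HNGMT against 0TF with DMSO and up to 4 per list elsewhere, and markers were named where they moved with a result or define a cell type. The members and lists were chosen with earlier results of these data known.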

Additional observations from a re-analysis of the deposited data

Results flagged for a closer look

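The 5 results given here were noted because the log2 change with the same treatment differed between 2 groups of cultures. The test was limma's test of the difference itself. A probe set can read delivered and endogenous RNA together, and the part of delivered RNA in these differences was not tested. Between HNGMT and 0TF MEFs, the TGFb1 effect differed by 0.29 on the log2 scale for Hand2 (adjusted p = 0.013), by 0.54 for Mef2c (adjusted p = 0.00024) and by 0.36 for Tbx5 (adjusted p = 0.013). For Hand2 the effect was 0.00 in HNGMT MEFs and -0.28 in 0TF MEFs. For Mef2c it was -0.53 in HNGMT MEFs and -1.07 in 0TF MEFs, and for Tbx5 -0.51 in HNGMT MEFs and -0.87 in 0TF MEFs. Between CFs and MEFs with HNGMT, the TGFb1 effect differed by -0.60 for Gata4 (adjusted p = 0.0028) and by 0.42 for Mef2c (adjusted p = 0.036). Of these 5, the Gata4 difference was the 1 that reached 1.5-fold. Groups of 3 cultures were too small for a test of single outlying cultures.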

How the results depend on the processing

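Each of the 13 called member results kept its direction under every setting tried, and none lost its call under another fit, normalization, filter or variance model (116 of 116 values). When arrays were left out, 79 values of called results kept their call and 5 lost it, and those were all the Gata4 difference of TGFb1 effects between CFs and MEFs (-0.72 to -0.49). The Tbx5 difference of HNGMT from 0TF MEFs with TGFb1 passed 1.5-fold under quantile normalization (-0.62) and under median centring (-0.60), so that 1 factor was called down there in place of 0. Without a fold threshold, the factors called in HNGMT against 0TF MEFs were 2 up and 2 down with SB, 2 up and 1 down with TGFb1 and 2 up and 2 down with DMSO. In HNGMT MEFs 2 were then down with TGFb1 over DMSO and 2 up with SB over TGFb1, in 0TF MEFs 1 was up and 1 down with SB over DMSO, and the differences of TGFb1 effects called 3 up between HNGMT and 0TF MEFs and 1 up between CFs and MEFs. At a fold of at least 2, the counts were 0 down in HNGMT against 0TF MEFs with DMSO, 0 up for SB over TGFb1 in HNGMT MEFs, 1 down for TGFb1 over DMSO and 1 up for SB over TGFb1 in 0TF MEFs, and 0 for each Gata4 call in CFs and between the cell types. Leaving out arrays moved the factors called down to between 0 and 1 (TGFb1) and between 1 and 2 (DMSO) for HNGMT against 0TF MEFs, to between 0 and 1 for TGFb1 over DMSO in HNGMT MEFs and for the CF minus MEF difference, and the factors called up to between 0 and 1 for the difference of TGFb1 effects between HNGMT and 0TF MEFs.

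Results that changed sign were all uncalled. Under quantile normalization the TGFb1 effect in HNGMT MEFs was -0.0115 for Hand2 and 0.0206 for Nkx2-5 (0.0238 under median centring), the Gata4 difference of TGFb1 effects between HNGMT and 0TF MEFs was -0.0149, and Mef2c in SB over TGFb1 in CFs was -0.0008 (-0.0041 under median centring). Gata4 in SB over DMSO in 0TF MEFs was 0.001 under median centring. Leaving out arrays gave, for HNGMT over 0TF MEFs, Nkx2-5 -0.194 to 0.0978 (TGFb1) and -0.0402 to 0.0576 (DMSO) and Mef2c -0.0975 to 0.0714 (TGFb1). In HNGMT MEFs it gave Gata4 -0.0617 to 0.166 for SB over DMSO, Hand2 -0.0349 to 0.051 and Nkx2-5 -0.11 to 0.18 for TGFb1 over DMSO, and Nkx2-5 -0.13 to 0.16 for SB over TGFb1. In 0TF MEFs it gave Gata4 -0.0859 to 0.0996 for SB over DMSO, and Gata4 -0.165 to 0.0209 and Hand2 -0.12 to 0.0043 for SB over TGFb1. Between HNGMT and 0TF MEFs the difference was -0.0602 to 0.168 for Gata4 in the SB effect, and -0.0643 to 0.164 for Gata4 and -0.207 to 0.0849 for Nkx2-5 in the TGFb1 effect. In CFs it gave Mef2c -0.193 to 0.0789 and Tbx5 -0.549 to 0.0198 for SB over DMSO, and Hand2 -0.0144 to 0.12, Nkx2-5 -0.0826 to 0.0225, Mef2c -0.0832 to 0.189 and Tbx5 -0.34 to 0.23 for SB over TGFb1. The CF minus MEF difference of TGFb1 effects was -0.0663 to 0.226 for Nkx2-5. The cause of these changes was not tested.

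A replicate block leaves every group difference unchanged in this balanced design, so direction and fold could not move. With it, 75 of 75 member results stayed on the same side of the threshold for a call. The limma adjusted p of Hand2 for the difference of SB effects between HNGMT and 0TF MEFs went from 0.095 to 0.038. The main fits did not treat the replicate numbers as pairs. In all, 7 of 18 MEF arrays and 5 of 9 CF arrays deviated most like an array of their own number. Same-numbered arrays correlated between -0.45 and 0.58 in MEFs and between -0.27 and 0.65 in CFs. With so few arrays, these values cannot exclude a pairing.

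The counts over all probe sets moved as well. Without a fold threshold, the MEF comparisons called 1606 to 11275 probe sets, and at a fold of at least 2 they called 32 to 1176, against 177 to 2751 as reported. For SB over DMSO in CFs the count of 50 became 0 by limma with only the compared groups in the fit (1353 had an unadjusted p under 0.05 with all 9 CF arrays), 311 with all 27 arrays, 5 with a replicate block, 7 at a fold of at least 2, and 2 to 377 when arrays were left out. For TGFb1 over DMSO in CFs the count of 1156 became 2303 with only the compared groups, 2225 with all 27 arrays, 188 at a fold of at least 2, and 644 to 1011 without 1 array. For SB over TGFb1 in CFs the count of 1660 became 2504 with all 27 arrays, 335 at a fold of at least 2, and 1166 to 3199 without 1 array. The CF minus MEF count of 973 became 3402 without a fold threshold and 356 at a fold of at least 2.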

Other observations

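TGFβ target genes, which stand outside the comparisons above, were called with TGFb1 over DMSO in CFs with HNGMT (8 of 14 measured up and 0 down, median log2 fold change 0.46) and in 0TF MEFs (6 up and 3 down, median 0.54), while in HNGMT MEFs 0 of 14 reached 1.5-fold by limma, although 7 had an adjusted p under 0.05 (median 0.10). The difference of TGFb1 effects was tested gene by gene with limma. Between HNGMT and 0TF MEFs, 2 of 14 were called up and 5 down (median -0.17), where 7.57% of all probe sets were called. Between CFs and MEFs with HNGMT, 3 were called up and 0 down (median 0.36), where 4.47% of all were. The list was not tested as a set.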
